A study of Mus musculus with 14 samples.

Results

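The aortic valves of mice given the HTR2B antagonist LY272015 alone (LY, n = 2 mice) were compared with the aortic valves of untreated mice (Ctrl, n = 4 mice), which are 6 of the 14 libraries of the series. The comparison covered all 19145 genes, of 56941 in the deposited table, whose counts averaged 10 or more across the 14 libraries. All of the mice were C57BL/6J males that entered the study at 8 weeks of age and ate the Breslow Western Diet, so the Ctrl mice were untreated but not diet-free controls. LY mice received 3 mg/kg of LY272015 by intraperitoneal injection and no angiotensin II (AngII), and the label of the LY 2 mouse carries a compound number 1 higher than LY272015, so its group was taken from its title, as were those of 3 AngII+LY mice whose labels carry other such numbers. The other 8 mice received AngII by osmotic pump at 1000 ng/kg/min for 28 days, without LY272015 (AngII, n = 4) or with it (AngII+LY, n = 4), and they enter here through the shared estimate of the spread and through the test of whether the antagonist acted differently when AngII was present. By the deposited design these 8 mice were collected 48 hours after their pumps were taken out, which the study's methods give for a subset of such mice. Each library was made from the dissected leaflets of 1 heart perfused with buffer, and the labels place it in its group but give no shared batch, litter or day.

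HTR2B is a receptor for serotonin that couples to Gq proteins, and in heart valves its activation has been tied to growth of the interstitial cells and to deposition of matrix. Serotonin is made from tryptophan by the TPH enzymes and DDC, is packed into vesicles by the transporter encoded by Slc18a2, is cleared from outside the cell by the serotonin transporter encoded by Slc6a4 and is broken down by monoamine oxidases. A comparison of LY with Ctrl mice addresses what an antagonist of this receptor does to the resting valve, in the absence of the AngII stimulus.

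No gene met the conditions for a call, an adjusted p below 0.05 with a log2 fold change beyond 0.5 in either direction, in edgeR's quasi-likelihood test (0 of 19145 genes, 0%, smallest adjusted p = 1), so each gene named below has an edgeR adjusted p of 1 and is described by its values. The unadjusted p was below 0.05 for 266 genes (1.39%), split into 120 on the higher side (0.627%) and 146 on the lower side (0.763%). That is a smaller share than the 0.05 that evenly spread p-values would give. DESeq2, run on the same counts, called 20 genes (0.106% of those it tested), all of them lower in LY mice, and 16 of the 20 were at 0 in both LY mice. A second description was used beside the test, namely whether both LY mice lay above or below every Ctrl mouse after normalization. That was so for 2306 genes (12%), with 1079 higher (5.64%) and 1227 lower (6.41%), a split that became 843 higher and 1532 lower with CPM (counts scaled to library size alone) in place of TMM scaling. Among these, 339 higher (1.77%) and 371 lower genes (1.94%) also differed by more than 1 on the log2 scale. If the group made no difference, 1 in 15 splits of 2 against 4 mice would put both LY mice highest, a fraction of 0.0667. The fraction for both lowest is the same. With TMM scaling neither share exceeded it, and with CPM the lower share was 8%. Separation of a single gene is thus a description of these mice and no evidence of an effect. Because Benjamini-Hochberg adjusted values left nothing called, a list of genes is read below against these shares. The genes of a list share the same libraries and can vary together. A share above that of all genes is therefore a description of these mice as well, and no evidence of an effect.

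With 2 mice the size of difference that could have been seen depended on the level of the gene. The median 95% half-width of a fold change was 3.03 on the log2 scale for genes with a mean normalized count under 100, 1.07 for 100 to 1000, 0.635 for 1000 to 10000 and 0.674 above that. The 95% interval of a gene lay within 2-fold in both directions for 22.2% of the genes with a mean normalized count of 100 to 1000 and for 74% of those of 1000 to 10000, so for most well counted genes the data bounded the difference, and for poorly counted genes they did not. Among 13635 genes with a mean normalized count of at least 100, the 2 LY mice differed from each other by more than 2-fold in 8.54%, less than 5 of the 6 pairs of Ctrl mice (8.13 to 16.3% over the 6). Pairs of 1 LY and 1 Ctrl mouse differed in 5.08 to 14%.

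**Figure D1:**
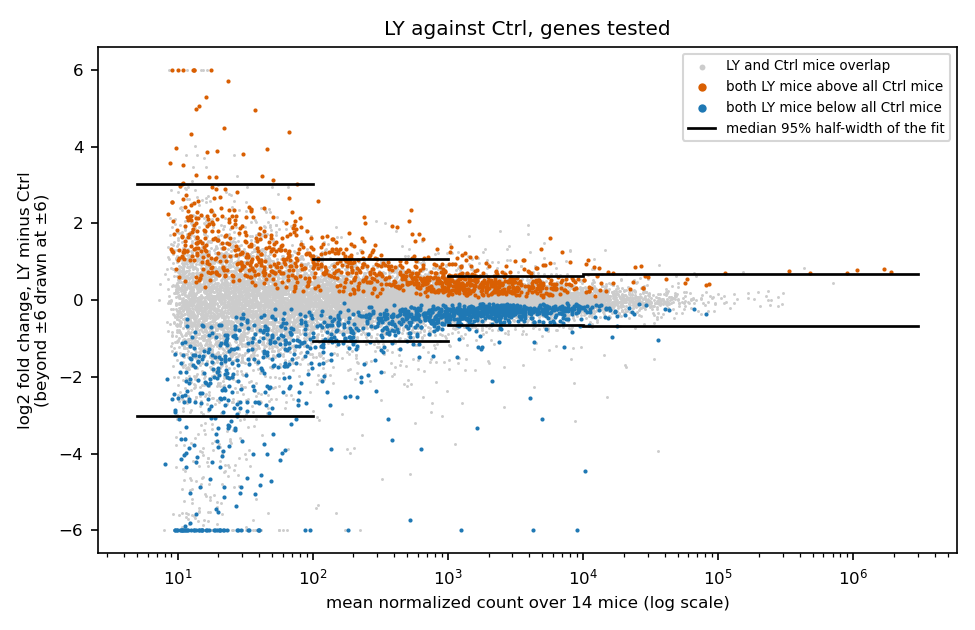
Log2 fold change of LY minus Ctrl (y axis) against the mean normalized count over 14 mice (x axis, log scale) for the 19145 genes tested, with 1079 genes whose LY mice both lie above the Ctrl mice in orange, 1227 whose LY mice both lie below in blue, and black lines at the median 95% half-width in each of 4 ranges of abundance. Most of the separated genes lie inside the black lines, which narrow from 3.03 under 100 normalized counts to 0.635 between 1000 and 10000.

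Library sizes were alike, at 45656578 to 69355531 counts in Ctrl and 58316854 to 67441113 in LY mice. Valve interstitial and fibroblast markers took 1.59 to 2.57% of the counts in Ctrl mice and 1.74 to 2.71% in LY mice, none of the 14 markers separated the groups, and the labelled tissue was thus carried by both groups. Other tissue was unevenly present in Ctrl mice. The Ctrl 1 library held 1.03% smooth muscle and pericyte marker counts against 0.0785 to 0.271% in the other Ctrl and 0.106 and 0.108% in the LY mice. The Ctrl 2 library held 5.09% cardiomyocyte marker counts, where the other Ctrl mice had 1.21 to 3.13% and the LY mice 2.80 and 2.26%, and 0.613% conduction and atrial myocyte marker counts against at most 0.0945% in the other 5 mice. The LY 1 library held 3.97% erythroid and 0.119% mesothelial and epicardial marker counts, the highest of the 6 mice in both. In bulk tissue, fewer cells of a type and less RNA per cell cannot be told apart.

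The genes of serotonin handling came first, because the antagonist acts at a serotonin receptor. Of 24 genes on the list 13 could be tested, 8 were higher and 5 lower in LY mice, and 2 transporter genes were separated from Ctrl, both higher, where 5.64% of all genes were. Slc18a2 (chromosome 19, 59249238 to 59284695, GRCm39), the vesicular monoamine transporter, had 785, 512, 904 and 1133 normalized counts in the Ctrl 1 to 4 mice and 1705 and 1869.8 in the LY 1 and 2 mice. Both LY mice lay well above the highest Ctrl mouse, and the log2 fold change was 1.10 ± 0.35 (SE) with a 95% interval of 0.36 to 1.85. Slc6a4 (chromosome 11, 76888903 to 76923169), which encodes the serotonin transporter, had 324, 66.6, 89.7 and 111 normalized counts in Ctrl and 908 and 339 in LY mice. The lower LY mouse only just exceeded the Ctrl 1 mouse, which itself stood apart from the other Ctrl mice, and the log2 fold change of 2.07 ± 1.01 had an interval that included 0 (-0.08 to 4.23). With CPM 1 of the 13 genes, not 2, was separated.

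The receptors themselves were scarcely counted. Htr2b (chromosome 1, 86026748 to 86039736), the target of LY272015, had 16.5, 51.7, 36.7 and 34.4 normalized counts in Ctrl mice and 140.4 and 7 in LY mice. One LY mouse lay above and the other below all Ctrl mice, so the level of the targeted receptor was not resolved (log2 fold change 1.08 ± 1.36, interval -1.84 to 4.00), and its sign turned when the LY 1 mouse was left out (-2.29). An antagonist blocks the receptor protein, and the mRNA is therefore no check of whether the drug acted. Htr2a, which encodes another Gq-coupled receptor of the same family, had 348, 187, 417 and 756 normalized counts in Ctrl and 314 and 363 in LY mice, with both LY mice inside the Ctrl range. Htr1b, a Gi-coupled receptor gene, was at 0 in both LY mice and had 597, 35, 0 and 26.6 in Ctrl mice, of which the highest value belonged to the Ctrl 1 mouse. The enzymes of synthesis, Tph1 (15.6, 46.7, 25.9 and 23 in Ctrl, 41.4 and 0 in LY) and Ddc (98, 135, 108 and 121 in Ctrl, 220.2 and 107 in LY), overlapped. The enzymes of breakdown were better counted and lay close together. Maoa had 1160.0, 851, 854 and 1449.6 normalized counts in Ctrl and 1290.4 and 1210.0 in LY mice (log2 fold change 0.21 ± 0.32), and Maob had 4958, 4368, 2281 and 4115 and 3978 and 6150.0. Aldh2, the aldehyde dehydrogenase that acts after them, had a log2 fold change of 0.30 ± 0.30. Of the lower affinity uptake carriers, Slc22a3 had a log2 fold change of -0.83 ± 1.04 and Slc29a4 of 0.06 ± 1.49, and Htr7, a Gs-coupled receptor gene, of -0.71 ± 2.65, all with groups that overlapped.

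**Figure D2:**
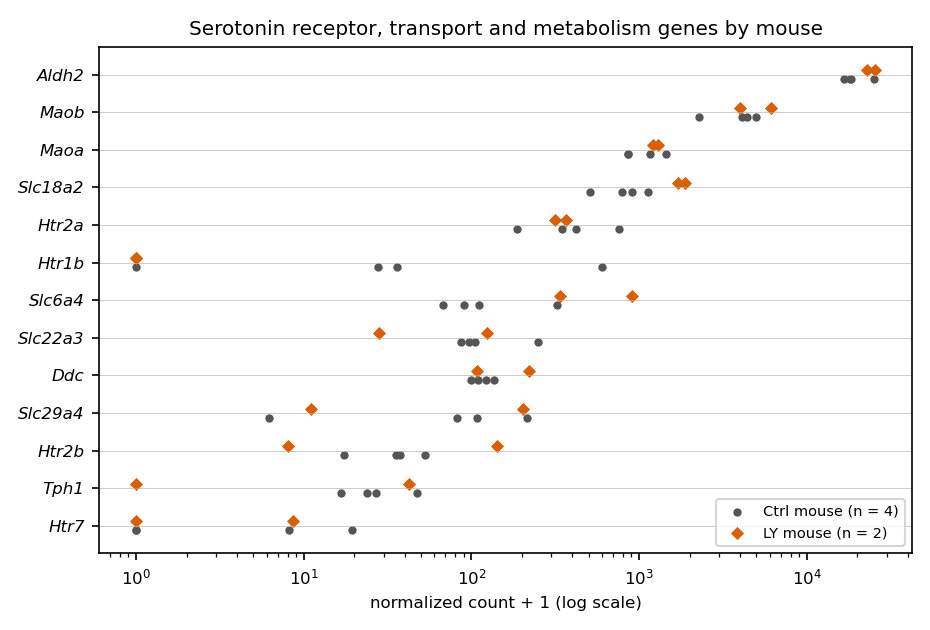
Normalized count plus 1 (x axis, log scale) of the 13 serotonin genes tested (y axis) in each of 4 Ctrl mice (grey circles) and 2 LY mice (orange diamonds). Both LY mice lie to the right of all Ctrl mice for Slc18a2 and Slc6a4, and the LY mice lie on opposite sides of the Ctrl mice for Htr2b.

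Downstream of the receptor, 1 of 23 genes of Gq and calcium signaling was separated between the groups, on the higher side (4.35%, against 5.64% of all genes). It was Gnaq, which encodes the Gq alpha subunit, with 3182, 2716, 3192 and 3505 normalized counts in Ctrl and 4042 and 3935 in LY mice. The difference was small (log2 fold change 0.34 ± 0.27), and the median over the list was -0.036.

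Immediate early genes, which are transcribed within minutes of a stimulus to the cell, were the list with the largest share of genes separated to the lower side with TMM scaling, and with CPM the heat shock list (33.3%) came before them (29.2%). Of 24 genes tested, 22 were lower and 2 higher in LY mice (54.1% of all genes were lower), and 7 were separated, all lower (29.2%, against 6.41% of all genes). Nr4a1 (chromosome 15, 101151980 to 101172681), an orphan nuclear receptor gene, had 2708, 3575, 2941 and 3051 normalized counts in Ctrl and 1428 and 1444 in LY mice. The LY mice were nearly equal and lay far below the lowest Ctrl mouse, with a log2 fold change of -1.10 ± 0.24 and an interval of -1.62 to -0.57. It was the tested gene with the smallest unadjusted p in edgeR, and DESeq2 called it (DESeq2 adjusted p = 0.0158). Fos (chromosome 12, 85520658 to 85524047), a subunit of the AP-1 transcription factor, had 2501, 3178, 2230.0 and 2815 in Ctrl and 1455 and 846 in LY mice, a log2 fold change of -1.22 ± 0.33. Egr1, a zinc finger transcription factor gene, had 6335, 9084, 4564 and 4143 in Ctrl and 2733 and 2906 in LY mice, a log2 fold change of -1.10 ± 0.35. For all 3 genes the interval excluded 0 and no mouse of either group crossed into the range of the other. They were named for their separation and small unadjusted p, so neither property is further evidence of a difference. The other separated members were Junb and Atf3, which encode further bZIP transcription factors, and Ier2 and Ier3, which encode short-lived early response proteins. Their log2 fold changes were -0.76 ± 0.36 for Junb, -0.75 ± 0.32 for Atf3, -0.54 ± 0.28 for Ier2 and -0.24 ± 0.29 for Ier3.

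Of the early genes that were not separated, 6 had log2 fold changes from -0.80 to -0.47, namely Fosb, Ccn1, Btg2, Egr3, Egr2 and Zfp36, and for others the value was near 0. Jun had 13269, 11526, 15279.7 and 13210.5 normalized counts in Ctrl and 13733 and 15024 in LY mice, and Klf6, Klf4, Klf2, Nr4a2 and Nr4a3 had log2 fold changes between -0.07 and 0. The median over the 24 genes was -0.36 (-0.30 with a GC correction), and it stayed between -0.44 and -0.27 when any 1 of the 6 mice was left out. The list took 0.256 to 0.304% of the counts in Ctrl mice and 0.218 and 0.210% in LY mice, so the LY mice were below every Ctrl mouse in the sum as well.

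**Figure D3:**
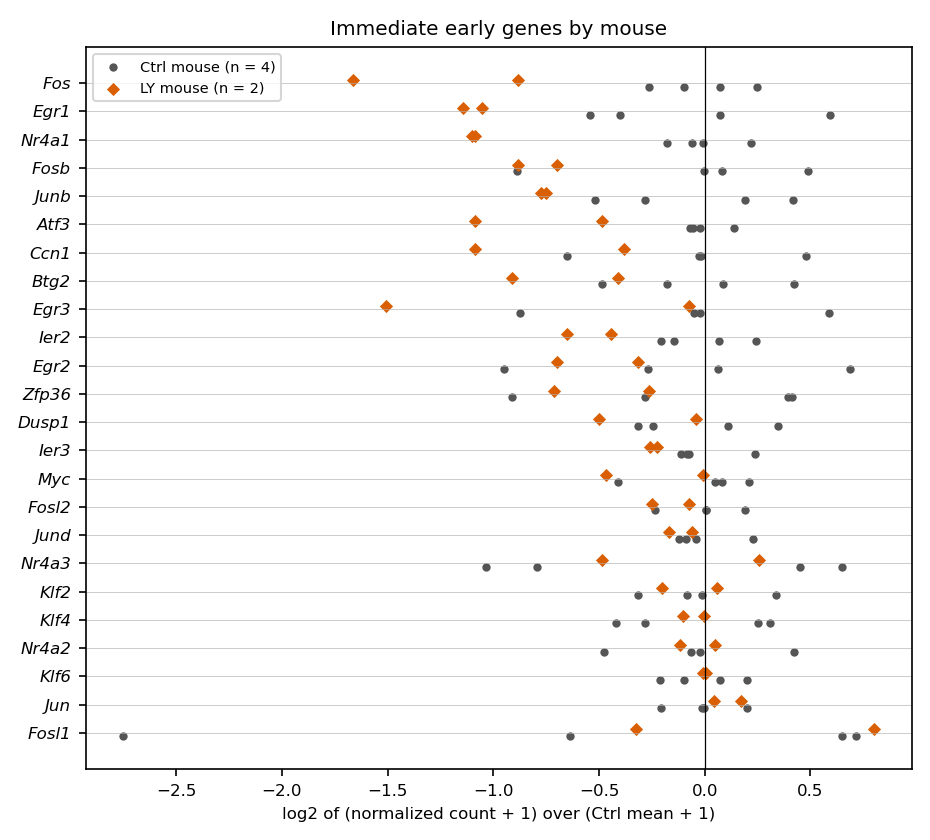
Log2 of the normalized count plus 1 relative to the Ctrl mean plus 1 (x axis) for 24 immediate early genes (y axis, ordered by fold change) in each of 4 Ctrl mice (grey circles) and 2 LY mice (orange diamonds). For 7 genes, among them Fos, Egr1 and Nr4a1, both LY mice lie to the left of every Ctrl mouse, and toward the foot of the plot the groups overlap.

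Stretches before the start sites of 2 of these genes are shown because the separated members differ in what their promoters hold. The sequences are from RefSeq, build GRCm38.p6, and give the 250 bases upstream of the listed start, 5′ to 3′ on the strand of the gene, with the letters TGACG, the core of the cyclic AMP response element on which CREB family factors bind, in capitals. On the opposite strand the same letters read CGTCA.

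Fos, chr12:85473640-85473889, plus strand: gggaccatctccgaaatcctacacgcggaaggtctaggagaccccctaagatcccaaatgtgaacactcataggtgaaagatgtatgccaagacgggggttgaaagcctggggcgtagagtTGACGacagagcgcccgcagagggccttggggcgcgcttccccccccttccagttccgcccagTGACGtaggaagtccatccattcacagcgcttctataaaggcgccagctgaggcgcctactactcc

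Nr4a1, chr15:101266596-101266845, plus strand: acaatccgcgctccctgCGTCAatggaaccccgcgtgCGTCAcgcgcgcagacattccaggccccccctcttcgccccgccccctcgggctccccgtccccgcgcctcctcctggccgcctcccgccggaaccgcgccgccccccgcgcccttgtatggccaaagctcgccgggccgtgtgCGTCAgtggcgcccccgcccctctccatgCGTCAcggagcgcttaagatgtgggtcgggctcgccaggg

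This core occurred at 2 places in the Fos stretch and at 4 in the Nr4a1 stretch. It was found on either strand in 12 of the 19 listed promoters of immediate early genes (63.2%) and in 17.9% of 27025 listed promoters. The full element TGACGTCA, which contains that core, was in 2 of the 19 (10.5%) and in 1.62% of all. The CArG box, at which serum response factor binds, was in 1 of the 19 (5.26%) and in 1.4% of all within this window. Among the separated genes Ier3 held none of these motifs, Junb and Atf3 held 1 core each, and Egr1 and Ier2 were not matched in the promoter table. Jun, which was not separated, held no core of this element. Nr4a2 and Nr4a3, which overlapped between the groups, held 4 each, as Nr4a1 did, so the count of this motif did not order the genes by their difference.

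Interferon-stimulated genes, which are switched on by type I and type II interferon and restrict viruses, were also mostly lower, though 1 Ctrl mouse weighed heavily. Of 24 genes, 22 were lower and 5 were separated, all lower (20.8%, against 6.41% of all genes). Oas2, which senses double-stranded RNA, had 403, 841, 351 and 199 normalized counts in Ctrl and 180.3 and 123 in LY mice (log2 fold change -1.56 ± 0.57). Oasl1, a relative that restrains translation of Irf7, had 224, 1371, 197 and 209 and 107 and 152, and its log2 fold change of -1.95 became -0.70 without the Ctrl 2 mouse. Isg15, a ubiquitin-like modifier, had 1662, 6146, 1464 and 1508 in Ctrl and 1212 and 1033 in LY mice. In all 3 genes the LY mice were the lowest and the Ctrl 2 mouse the highest of the 6. Stat2 and Xaf1 were the other separated members, with log2 fold changes of -0.71 ± 0.35 and -0.49 ± 0.37. The list took 0.218% of the counts in the Ctrl 2 mouse, 0.0844 to 0.102% in the other Ctrl mice and 0.0831 and 0.0763% in LY mice. The median over the list was -0.68, and -0.20 without the Ctrl 2 mouse, when 18 of 24 genes were lower and 5 separated genes were lower. The same mouse had the largest cardiomyocyte and atrial marker shares given above, and their part in this result was not tested.

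The promoter of Isg15 is shown because it carries overlapping copies of the core of the interferon-stimulated response element, searched on both strands as GAAA, any 2 bases and GAAA again, and printed in capitals.

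Isg15, chr4:156200819-156201068, minus strand: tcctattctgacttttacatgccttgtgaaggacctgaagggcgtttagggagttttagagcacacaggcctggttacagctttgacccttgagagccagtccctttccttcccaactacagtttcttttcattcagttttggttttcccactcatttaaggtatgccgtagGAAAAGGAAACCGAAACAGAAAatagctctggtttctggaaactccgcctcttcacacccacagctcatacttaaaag

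The core was in 10 of the 17 listed promoters of interferon-stimulated genes (58.8%) and in 3.04% of all listed promoters, and 3 overlapping copies make up the capitals above. Stat2 held 1 copy, while Oasl1 and Xaf1, which were separated as well, held none in this window.

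Chemokines and cytokines were separated in both directions, with 5 of 30 genes lower and 5 higher (16.7% each, against 6.41% and 5.64% of all genes). The split was 6 lower and 3 higher with CPM and 4 lower and 3 higher with a GC correction. Ccl7, which draws in monocytes, had 1021, 1716, 617 and 629 normalized counts in Ctrl and 331 and 399.8 in LY mice, and its log2 fold change was -1.45 ± 0.48 (interval -2.47 to -0.42). Ccl2, its neighbour with the same receptor, had 693, 1674, 479 and 603 and 186 and 436 and a log2 fold change of -1.47 ± 0.66. Cxcl9, an interferon gamma responsive T cell chemokine, had 85.9, 375, 75.6 and 103 in Ctrl and 56 and 17.5 in LY mice. Each of these genes was lowest in the LY mice and highest in the Ctrl 2 mouse. On the higher side, Il34, a ligand of the CSF1 receptor on macrophages, had 179.6, 191, 129.7 and 91.9 normalized counts in Ctrl and 318 and 599 in LY mice, a log2 fold change of 1.63 ± 0.51 (interval 0.53 to 2.73). Il33, an alarmin of stromal cells, had 4473, 3331, 2325 and 3080.0 and 4631 and 6975 (log2 fold change 0.81 ± 0.35), and Cxcl5, a neutrophil chemokine, had 65.9, 35.8, 48.6 and 24.4 and 68.3 and 171. For Il33 and Cxcl5 the lower LY mouse lay only just above the highest Ctrl mouse. Macrophage and myeloid markers did not differ in a like manner, since 10 of 18 were higher and 1 was separated, the lower Cd14, with a median of 0.027.

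Lymphocyte markers held few counts and pointed in different ways. Ms4a1, which encodes the B cell antigen CD20, was separated and higher, with 65.1, 30.8, 8.64 and 39.5 normalized counts in Ctrl and 96.7 and 71.7 in LY mice. Cd8a, of cytotoxic T cells, was separated and lower, with 73.7, 98.3, 34.6 and 15.8 and 2.3 and 4.37. In all, 3 of 18 lymphocyte markers were separated and lower (16.7%, against 6.41% of all genes). On the higher side 1 was separated (5.56%, against 5.64%). The summed share of counts was 0.00765 to 0.0144% in Ctrl and 0.0151 and 0.00856% in LY mice.

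Heat shock and unfolded protein response genes showed the same side as the immediate early genes. Of 24 genes 18 were lower and 5 were separated, all lower (20.8%, against 6.41% of all genes), by small amounts. Hspa1a, the inducible HSP70, had 1229, 984, 631 and 896 normalized counts in Ctrl and 549 and 621 in LY mice (log2 fold change -0.68 ± 0.40). Hspb1, the small heat shock protein HSP27, had 16984, 18284, 13289.5 and 11462 and 10818 and 11245 (log2 fold change -0.44 ± 0.29). The chaperone genes Hsph1 and Dnajb1 and the stress transcription factor gene Atf4 were separated with log2 fold changes of -0.37, -0.26 and -0.30, and the median over the list was -0.094. The number separated was 8 of 24 with CPM and 3 of 24 with a GC correction, all lower.

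The mRNAs encoded by the mitochondrial genome were the list with the largest share of separated genes. All 13 were higher in LY mice, and 12 of them (92.3%, against 5.64% of all genes) were separated. Counts on the mitochondrial genome made up 3.998, 5.277, 5.489 and 7.524% of the total in Ctrl 1 to 4 and 8.619 and 9.765% in LY 1 and 2. Both LY mice exceeded all 4 Ctrl mice, with means that differed by 3.62 percentage points, and the exact two-sided permutation test gave p = 0.0667, the smallest that its 15 splits of 2 against 4 mice allow. These 13 mRNAs come from few long transcripts and are not 13 independent observations. The log2 fold changes ran from 0.56 to 1.0, with a median of 0.81. The largest was that of mt-Co3, a subunit of cytochrome c oxidase, with 2939, 4351, 3331 and 3454 normalized counts in Ctrl and 6523 and 7525 in LY mice. mt-Nd3, of complex I, had 2279, 2679, 2487 and 3094 in Ctrl and 4961 and 5362 in LY mice, with an interval of 0.27 to 1.67. The interval excluded 0 for 4 of the 13 mRNAs and included 0 for the others, such as mt-Co1 (-0.27 to 1.89) and mt-Cytb (-0.29 to 1.78). Both ribosomal RNAs of the organelle and the 8 of its 22 tRNA genes that could be tested were higher as well, and 3 of those tRNA genes were separated.

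The difference was smaller after a correction for base composition. Across 19043 genes the log2 fold change was lower where the GC content was higher (Spearman rho = -0.213, a description over genes that share the same 6 libraries), mitochondrial transcripts are poor in GC, and with a GC correction the median of the 13 mRNAs was 0.48 and 8 of them were separated. The subunits of the respiratory chain that are encoded in the nucleus did not accompany the mitochondrial mRNAs: 21 of 48 were higher, 27 lower, 1 was separated and the median was -0.010. Uqcrb, of complex III, was the separated one, with 22098, 33519, 28135 and 40925 normalized counts in Ctrl and 41151 and 50029 in LY mice. Cardiomyocyte marker shares of the LY mice lay within the Ctrl range, as given above.

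**Figure D4:**
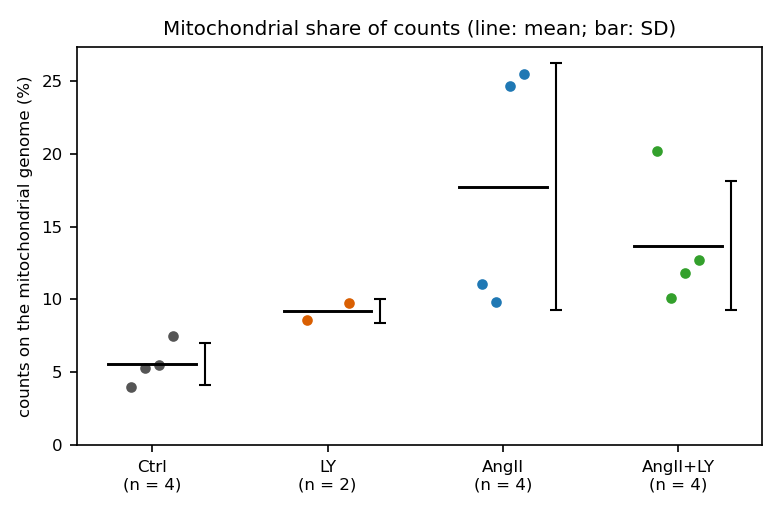
Percent of each library's counts that fell on the mitochondrial genome (y axis, from 0) for Ctrl (n = 4), LY (n = 2), AngII (n = 4) and AngII+LY mice (n = 4), 1 point per mouse, with the mean as a line and the SD as a bar. The LY mice at 8.619 and 9.765% lie above the 4 Ctrl mice at 3.998 to 7.524%.

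Endothelial markers were separated on the higher side more often than genes at large. Of 17 markers 12 were higher, and 5 were separated, all higher (29.4%, against 5.64% of all genes). Vwf, the blood clotting factor stored by endothelial cells, had 13148, 12918, 17958 and 13546 normalized counts in Ctrl and 27728 and 19507 in LY mice, a log2 fold change of 0.71 ± 0.21 (interval 0.27 to 1.16). Plvap, which forms the diaphragms of endothelial pores, had 8507, 10456, 13778 and 11223 and 25792 and 14398, a log2 fold change of 0.87 ± 0.37. Emcn, a sialomucin of venous and capillary endothelium, had 7244, 5727, 9776 and 8992 and 12221 and 10695, a log2 fold change of 0.53 ± 0.24. Prox1, the transcription factor of lymphatic and valve endothelium, and Robo4, an endothelial guidance receptor gene, had log2 fold changes of 0.62 ± 0.36 and 0.72 ± 0.44. In each the Ctrl 1 or the Ctrl 2 mouse was the lowest, and the lower LY mouse exceeded the highest Ctrl mouse by little. The summed marker share did not separate the groups, at 0.283 to 0.554% in Ctrl and 0.473 and 0.405% in LY mice. The median log2 fold change over the list was 0.13, and 0.007 without the Ctrl 1 mouse, when 9 of 17 markers were higher and the number separated was again 5. With a GC correction 3 of the 17 were separated.

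Genes that respond to glucocorticoids, the adrenal stress steroids, were higher in 13 of 17 cases. Of the 17, 5 were separated and higher (29.4%, against 5.64% of all genes) and 1 was separated and lower. Ddit4, an inhibitor of mTOR signaling, had 862, 1186, 1133 and 446 normalized counts in Ctrl and 2373 and 1977 in LY mice, a log2 fold change of 1.26 ± 0.43 (interval 0.34 to 2.18). Tsc22d3, also known as GILZ, had 28407, 30856, 24900.0 and 20893 and 56456 and 41169, a log2 fold change of 0.89 ± 0.35. Sult1a1, a phenol sulfotransferase gene, had 3411, 4047, 4585 and 2919.9 and 7030.5 and 6265, a log2 fold change of 0.83 ± 0.33. In these 3 genes the lower LY mouse was clear of the Ctrl mice. Sgk1, a kinase gene of salt and stress responses, and Nfkbia, the inhibitor of NF-kB, were separated by less (0.32 ± 0.22 and 0.23 ± 0.28). Fkbp5, a chaperone gene that follows the hormone closely, did not separate, with 2387, 2935, 1106 and 1086 in Ctrl and 6619 and 2784 in LY mice. Angptl4, a lipoprotein lipase inhibitor, was the separated lower member (1049, 1305, 825 and 825 and 652 and 651). The median was 0.32 and stayed between 0.18 and 0.33 when any 1 mouse was left out, and with CPM 3 genes, not 5, were separated and higher.

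Clock genes, whose levels follow the time of day, were separated in 5 of 19 cases, 3 higher (15.8%) and 2 lower (10.5%). Over all genes the shares were 5.64% and 6.41%. Under CPM, 1 clock gene was separated and higher and 3 were lower. Nr1d1, the repressor REV-ERB alpha, had 13806, 8816, 6988 and 11030.4 normalized counts in Ctrl and 3990.1 and 4768 in LY mice, a log2 fold change of -1.21 ± 0.46 (interval -2.21 to -0.22), and Bhlhe40, another repressor, had one of -0.45 ± 0.26. The repressor gene Cry1 and the PAR bZIP factor gene Hlf were on the higher side, at 0.53 ± 0.44 and 0.46 ± 0.30, and Per2 was the third (0.25 ± 0.19).

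Several genes outside these groups were among the 10 higher genes with the smallest unadjusted p. Cd38, an ectoenzyme that consumes NAD, had 1005, 1171, 862 and 1625 normalized counts in Ctrl and 2623 and 2422 in LY mice, a log2 fold change of 1.11 ± 0.28 (interval 0.51 to 1.72). Npr3, the clearance receptor of natriuretic peptides and a gene of endocardium, had 3700.4, 4185, 4122 and 5444 and 12556 and 8270.0, a log2 fold change of 1.26 ± 0.35 (interval 0.51 to 2.0). Lifr, the receptor of leukemia inhibitory factor, had 3313, 3241, 3227 and 5357 and 7382 and 6825, a log2 fold change of 0.91 ± 0.27. In these genes the LY mice were both above the highest Ctrl mouse by a margin larger than the gap among the upper Ctrl mice for Cd38 and Npr3, and for Lifr the Ctrl 4 mouse stood between the groups. Adh1, an alcohol and retinol dehydrogenase gene, had a log2 fold change of 1.05 ± 0.31, Rbm45, an RNA-binding protein gene, of 1.79 ± 0.55 and Gpm6a, a membrane glycoprotein gene of neurons and mesothelium, of 1.62 ± 0.46. The Gpm6a value of the LY 1 mouse (13164) was more than that of the LY 2 mouse (5805), and the LY 1 library also had the highest mesothelial marker share. Among genes with a mean normalized count of at least 1000, of which 4.77% were separated and higher and 6.67% separated and lower, Fam107a, a gene that responds to glucocorticoids in brain, had 901, 977, 574 and 478 and 2443 and 1416, a log2 fold change of 1.4 ± 0.48, and Angptl7, a secreted angiopoietin-like protein gene, had 6493, 6105, 3487 and 5577 and 10906 and 16462, one of 1.34 ± 0.45.

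Enzymes that handle foreign compounds were not raised as a group, with 12 of 23 higher, 11 lower and a median of 0.12. Within the list 3 genes were separated and higher (13%, against 5.64% of all genes) and 1 was separated and lower (4.35%, against 6.41%). Cyp1b1, a cytochrome P450 induced through the aryl hydrocarbon receptor, had 590.0, 776, 771 and 898 normalized counts in Ctrl and 2035 and 1519.8 in LY mice, a log2 fold change of 1.23 ± 0.45. Aldh3a1, an aldehyde dehydrogenase gene under the same receptor, had 1426, 1085, 1706 and 1142 and 3826 and 2193, a log2 fold change of 1.17 ± 0.52. Both LY mice exceeded the Ctrl mice in each. Cyp2f2, a cytochrome P450 of airway club cells, was on the lower side (99.8, 117, 144 and 482 and 17.6 and 31.5), as was Scgb3a2, a secreted product of the same cells (229.9, 235, 295 and 1288 and 89 and 12.2), with the highest value of both in the Ctrl 4 mouse.

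Lists of genes that act in valve matrix remodeling had few separated genes, and the medians of several turned on which LY mouse was used. Without the LY 2 mouse the median log2 fold change was -0.56 for collagens, -0.46 for elastic fiber and matricellular genes, -0.40 for proteoglycan genes and -0.55 for WNT genes. Without the LY 1 mouse it was 0.15, 0.11, 0.30 and -0.039 for the same lists, so its sign turned for the first 3. In those 3 lists the mean log2 normalized count of both LY mice lay within the Ctrl range. Of 24 TGF-beta ligands, receptors and SMADs, 12 were higher and 12 lower, with a median of -0.006. The separated one was Tgfbr3, the coreceptor betaglycan, with 3442, 3306, 3437 and 4296 normalized counts in Ctrl and 4428 and 4409.7 in LY mice. Of 24 BMP, osteogenic and mineralization genes 10 were higher and 14 lower, with a median of -0.043, and 2 were separated and higher. Bmp6, a bone morphogenetic protein of endothelium, had 3749.8, 4105, 5242 and 4111 and 6281 and 5382 (log2 fold change 0.44 ± 0.39), and Dlx5, an osteoblast transcription factor gene, had 19.1, 10, 36.7 and 0 and 79.8 and 50.7, too few for the interval to exclude 0 (-1.59 to 5.56). Among 26 WNT genes 2 were separated in each direction, and 2 lower and 0 higher with CPM or a GC correction. Fzd4, a receptor gene, had 1568, 2653, 2899.9 and 2277 and 4837 and 2928, a log2 fold change of 0.72 ± 0.29. Its coreceptor gene Lrp6 was higher by 0.25 ± 0.18, while the target gene Axin2 (-0.37 ± 0.54) and the ligand gene Wnt6 (-3.61 ± 2.48) were lower. Of 14 Notch receptors, ligands and targets 13 were lower, by a median of -0.27, and 1 was separated, the ligand gene Jag2, with 911, 1658, 1141 and 937 normalized counts in Ctrl and 768 and 787 in LY mice.

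Collagens were 8 higher and 19 lower of 27, and the median of -0.13 became 0.091 without the Ctrl 1 mouse, beside the values without an LY mouse given above. The basement membrane collagen genes took both directions. Col4a2 had 10742, 7974, 5631 and 4977 normalized counts in Ctrl and 3963 and 4304 in LY mice, a log2 fold change of -0.83 ± 0.31 (interval -1.50 to -0.15), and Col4a1, transcribed from the shared promoter of the pair, had one of -0.47 ± 0.25. Col4a3, which belongs to another heterotrimer, had 982, 681, 944 and 1212 and 1661 and 1215, a log2 fold change of 0.59 ± 0.31. Col2a1, the collagen of cartilage, had 0, 0.833, 0 and 7.18 and 68.3 and 25.4. Of the elastic fiber and matricellular genes, Eln (elastin) was separated and lower (-0.64 ± 0.41), and Fbn2 (a fibrillin) and Efemp1 (a fibulin) were separated and higher (0.70 ± 0.96 and 0.91 ± 0.44). Of 24 proteoglycan and cartilage-like matrix genes Cytl1, a small secreted protein gene abundant in valve, had 40312, 33740.5, 39229 and 44289 and 69300.4 and 46819, Aspn (asporin) had a log2 fold change of 0.61 ± 0.47, and Has3, a hyaluronan synthase gene, had 89.4, 96.6, 62.7 and 118 and 1.53 and 10.5. Of 21 matrix proteases and inhibitors 1 was separated, the collagenase gene Mmp13, with 359, 84.1, 121 and 26.6 and 12.3 and 21.9. With all 6 mice these shares are close to those of all genes.

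Genes of cholesterol and fatty acid synthesis were lower in 19 of 24 cases with a median of -0.18. Of these 24 genes, 4 were separated and lower (16.7%, against 6.41% of all genes) and 2 separated and higher (8.33%, against 5.64%). Under CPM, 5 were separated and lower and 0 higher. Fdps, of the mevalonate pathway, had a log2 fold change of -0.57 ± 0.41, and Mvk and Me1 of -0.55 ± 0.31 and -0.28 ± 0.18. Scd2, a fatty acid desaturase gene, and Srebf1, a master regulator of lipid synthesis, were separated to the higher side, at 0.29 ± 0.23 and 0.20 ± 0.31. Hypoxia and glycolysis genes were lower in 22 of 24 cases and separated in 2, the glycolytic enzyme genes Pfkp (-0.59 ± 0.31) and Pgam1 (-0.28 ± 0.29). Their median of -0.16 moved between -0.27 and 0.038 as single mice were left out. Of the natriuretic peptide and endothelin genes, beside Npr3, Edn3 was separated and higher (5.21, 0, 0 and 8.61 and 96.7 and 15.7) and Nppc, which encodes C-type natriuretic peptide, was separated and lower (1967, 2047, 2629.8 and 3779 and 1605 and 1942).

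Among separated genes with a mean normalized count of at least 1000, those with the largest lower fold changes had their highest counts in 1 or 2 Ctrl libraries. Myh11, the myosin heavy chain of smooth muscle, had 78076, 10735, 929 and 377 normalized counts in Ctrl and 369 and 175 in LY mice, and Cnn1 (calponin) had 36843, 4532, 254 and 215 and 206 and 65.6. The Ctrl 1 mouse was by far the highest and the Ctrl 2 mouse next, while the LY mice were below the remaining Ctrl mice by little. The fold change of Myh11 was -6.37 on the log2 scale, and -3.88 without the Ctrl 1 mouse. Acta2, of the same contractile cells, had 284730.0, 39775, 5386 and 7455 in Ctrl and 3938 and 7201 in LY mice and overlapped. The median over 14 smooth muscle and pericyte markers was -1.39, and -0.63 without the Ctrl 1 mouse. Ccn3, a matricellular protein gene, Susd5, Efhd1, a mitochondrial calcium sensor gene, and Prdm6, a smooth muscle transcription factor gene, also had the Ctrl 1 mouse highest and the Ctrl 2 mouse next. Ccn3 had 88739, 4640.2, 1285 and 1968 and 1111 and 1085, with a fold change of -4.46 on the log2 scale that became -1.26 without the Ctrl 1 mouse. Susd5 had 11794, 1292, 8.64 and 5.74 and 3.07 and 0, Efhd1 2551, 702, 192 and 136 and 57.5 and 63, and Prdm6 629, 131, 2.16 and 37.3 and 1.53 and 1.75. DESeq2 called Susd5, Efhd1 and Prdm6 (DESeq2 adjusted p = 0.00402, 0.0318 and 0.0292). The 16 antigen presentation genes of the MHC likewise had a median of -0.43 with all mice and 0.0047 without the Ctrl 1 mouse.

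Some genes were counted in 1 group only. There were 61 genes at 0 in both LY mice with at least 3 counts in every Ctrl mouse (0.107% of 56941) and 49 genes at 0 in every Ctrl mouse with at least 3 counts in both LY mice (0.0861%), and with at least 10 counts asked for they were 10 and 14. Folds compare the mean CPM of the group with counts to a floor of 3 counts per library. They refer to the group mean and are no bound for each mouse. Cyp2a5, a cytochrome P450 gene, had 68, 32, 80 and 209 raw counts in Ctrl mice and was at least 34.0-fold lower in LY mice. Plk5, of the polo-like kinase family, had 8, 128, 14 and 90 and was at least 19.8-fold lower. Cyp11a1, the first enzyme of steroid hormone synthesis, had 34, 51, 53 and 50 and was at least 17.3-fold lower. Ms4a8a and Esr2, which encodes estrogen receptor beta, were at least 14-fold and 13.3-fold lower. Wdr95 and Slc1a1, a glutamate transporter gene, were at least 9.19-fold and 7.72-fold lower. Zeros also occurred in AngII mice, which had no LY272015. Cyp2a5 and Cyp11a1 were at 0 in the AngII 1 mouse, Plk5 in AngII 4 and Esr2 in AngII 1, 2 and 4. Ms4a8a, Wdr95 and Slc1a1 were counted in every AngII mouse. In the other direction Fam83b had 56 and 76 raw counts in the LY mice and was at least 20.1-fold higher than in Ctrl mice. Foxa2, an endodermal transcription factor gene, had 40 and 22 and was at least 9.17-fold higher. Ppp1r17, Il23r and Lrrc7 had 109, 86 and 72 counts in the LY 1 mouse but 9, 12 and 6 in the LY 2 mouse, and were at least 16.7-fold, 14-fold and 11.1-fold higher. For genes with so few counts the median 95% half-width given above was 3.03.

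The LY difference without AngII was then set beside the difference between AngII+LY and AngII mice, which uses none of the same libraries. No gene was called in the edgeR test of the interaction (0 of 19145 genes, 0%, smallest adjusted p = 0.295), and 2545 genes (13.3%) had an unadjusted p under 0.05. DESeq2, given the same 19145 genes, called 210 for the interaction. Of its 20 calls for LY against Ctrl, 16 were genes at 0 in both LY mice, and why it called genes where edgeR did not was not tested. The 2 differences had the same sign in 39.8% of all genes and in 85 of the 266 genes at an unadjusted p under 0.05 (32%). In mice given AngII, 5.45% of genes were separated and higher with LY272015 and 5.66% separated and lower. Genes separated in both settings were opposite in 201 cases and alike in 26, of 19145 tested. Across all genes the 2 log2 fold changes had a Pearson r of -0.0562 and a Spearman rho of -0.198. The genes share the same libraries, so these values are descriptions. Slc18a2 was one of the opposite ones, with 1296, 1702, 1573 and 2548 normalized counts in AngII and 345, 669, 561 and 765 in AngII+LY mice. LY272015 thus went with higher Slc18a2 counts in the 2 mice without AngII and with lower counts in all 4 mice with AngII, where the log2 fold change was -1.60 ± 0.30. The interaction was -2.70 ± 0.46 on the log2 scale (edgeR adjusted p = 0.295). Il33 followed the same order, with 3425, 8045, 3538 and 4804 in AngII and 1777, 1129, 1659 and 1869.6 in AngII+LY mice and an interaction of -2.44 ± 0.45 (edgeR adjusted p = 0.295). Jag2 had the reverse order, with 1021, 823, 964 and 1238 in AngII and 1646, 3426, 2016 and 2560.2 in AngII+LY mice and an interaction of 1.84 ± 0.41 (edgeR adjusted p = 0.295). Slc6a4 overlapped between AngII+LY and AngII mice (-1.11 ± 0.86). For Nr4a1, Fos and Egr1 the log2 fold changes of AngII+LY against AngII were 0.19 ± 0.19, 0.25 ± 0.26 and -0.09 ± 0.27, and none was separated. The 13 mitochondrial mRNAs had a median of -0.28 in that comparison.

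**Figure D5:**
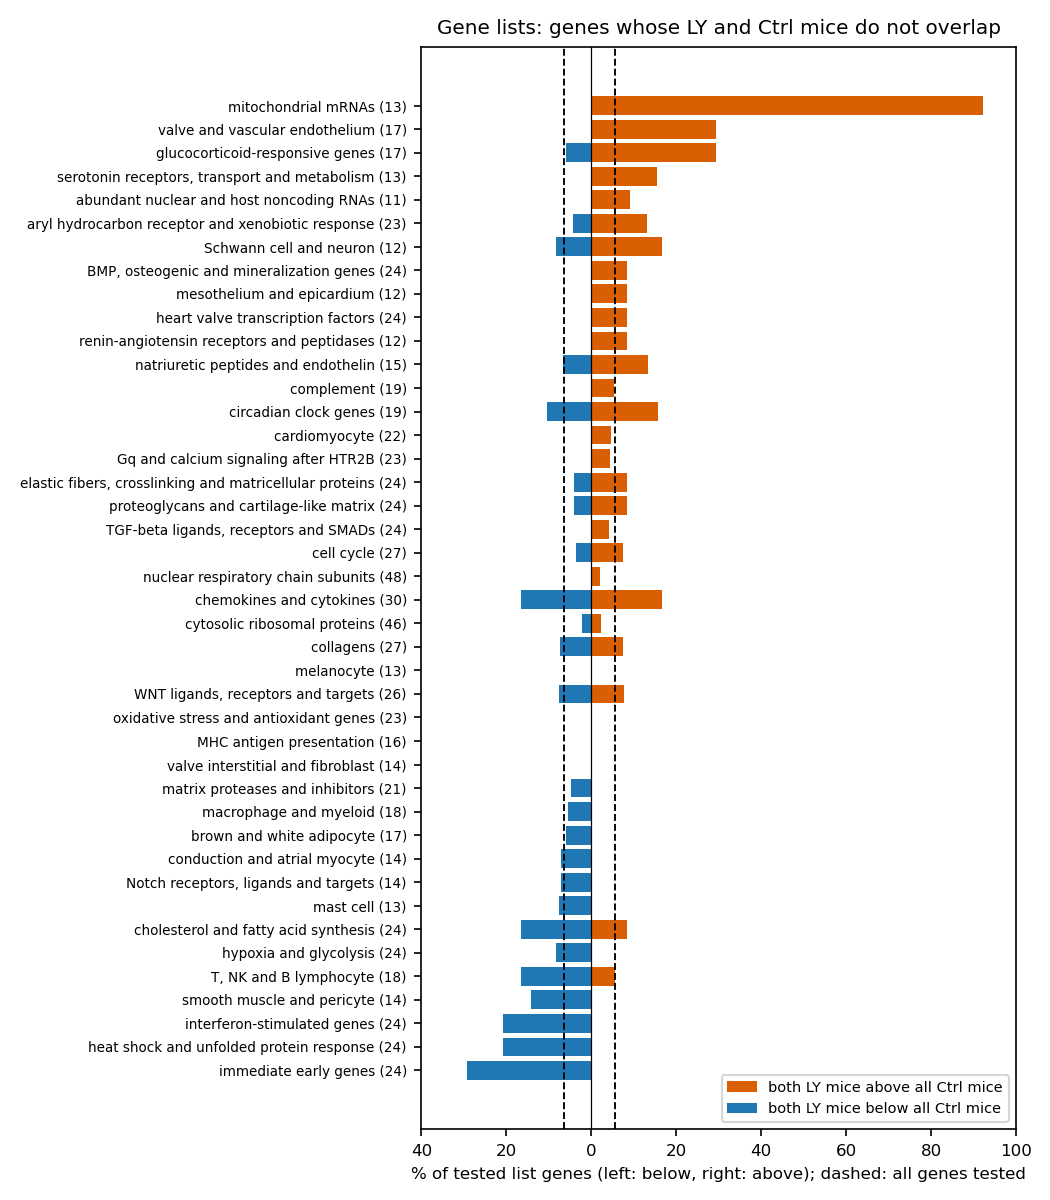
Percent of the tested genes of each list (list size in brackets) whose LY mice both lie above all Ctrl mice (orange, to the right) or below them (blue, to the left), with dashed lines at the shares of all genes, 5.64% above and 6.41% below. Mitochondrial mRNAs (92.3% above) and immediate early genes (29.2% below) lie at the ends, and most lists of matrix, TGF-beta, WNT and cell type genes lie near the dashed lines.

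The other lists are given by their counts with TMM scaling, where counts of 1 or 2 often moved with CPM or a GC correction, lower being against 6.41% and higher against 5.64% of all genes separated. Of 46 cytosolic ribosomal protein genes 35 were higher by a median of 0.039, and 1 was separated in each direction, Rpl23 higher and Rplp2 lower. Of 23 oxidative stress and antioxidant genes 0 were separated, with a median of -0.040. Of 27 cell cycle genes 2 were separated and higher and 1 separated and lower (median 0.062). Of 19 complement genes 1 was separated and higher, Cfi (52.1, 27.5, 34.6 and 5.02 in Ctrl and 315 and 64.7 in LY mice). Of 24 heart valve transcription factors 2 were separated and higher, of which Foxc1 had 6106, 3844, 5165 and 6972 and 7096 and 7799. Of 12 renin-angiotensin genes Enpep, an aminopeptidase that cleaves AngII, was separated and higher (0.54 ± 0.61). Of 11 abundant noncoding RNAs 1 was separated and higher, Rn7sk. Of 22 cardiomyocyte markers Pln was separated and higher (0.47 ± 0.51), and of 17 adipocyte markers Fabp4 was separated and lower (-0.23 ± 0.29). Of 13 mast cell markers Mrgprb1 was separated and lower, of 12 Schwann cell and neuron markers Cdh19 and Tubb3 were separated and higher and Ngfr lower, and of 12 mesothelial and epicardial markers Muc16 was separated and higher. Of 14 conduction and atrial markers Isl1 was separated and lower, and of 13 melanocyte and 9 erythroid markers 0 were separated. The list of sex-linked genes served as a check of the labels, and Uty was separated and higher (0.88 ± 0.50).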

How the data were processed

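Aortic valve leaflets of 14 mice were sequenced as bulk RNA-seq, and the deposited table holds whole-number counts per gene that the authors made by trimming reads, aligning them with HISAT2 to GRCm39 and counting with featureCounts. Its name calls it normalized, but its values are raw counts, and the annotation release and strand setting are not given in the sources used here. Ensembl identifiers were named from GENCODE, and 618 unmatched ones took 0.0361% of counts.

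Genes whose counts averaged 10 or more across the 14 libraries were tested with edgeR 4.0.16 (R 4.3.3) by TMM scaling and the quasi-likelihood test over all 4 groups, with genes called below a Benjamini-Hochberg adjusted p of 0.05 when the log2 fold change was beyond 0.5 in either direction. DESeq2 1.42.0 and limma 3.58.1 served as alternatives. Normalized counts are counts scaled to the TMM effective library size. Groups were called separated when both LY mice lay above or below every Ctrl mouse. Shares of counts were compared by an exact permutation test, and at these depths the counting error of a mitochondrial share is at most 0.0373 percentage points wide at 95% (Wilson), which covers counting error only. Motifs were searched on both strands in RefSeq promoters (GRCm38.p6), using the first entry listed per gene.

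Named genes were the tested genes of the serotonin list, the 10 higher and 10 lower separated genes with the smallest unadjusted p, the 5 higher and 5 lower separated genes with the largest fold change at a mean normalized count of at least 1000, up to 5 genes per direction at 0 in 1 group, up to 2 separated members per direction in each list, and genes called by DESeq2 with a symbol and counts in both LY mice. Values of 2 genes that these rules name are not reported here. Further members of the immediate early, heat shock, glucocorticoid, interferon, clock, chemokine, lipid, endothelial and smooth muscle lists were named after their values were seen. The members and the lists were chosen with earlier results of these data known. Counts were simulated for the LY against Ctrl comparison of 19145 genes with the dispersion of the real data, and only well counted genes were changed. Of these, 79 of 100 genes changed by 2 on the log2 scale and 9 of 100 changed by 1 were called. Among unchanged genes 3 were called, and 4.91% had an unadjusted edgeR p under 0.05, against 1.39% of genes in the real data. The simulated share called therefore does not carry over to poorly counted genes or to the real test. The labels do not say whether mice of a group shared a cage, litter or day, and the p-values do not cover a difference that comes with such sharing. In edgeR the spread was estimated over all 14 mice, 8 of them given AngII, and not from the 6 compared mice alone.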

Additional observations from a re-analysis of the deposited data

Results flagged for a closer look

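Among the 4 Ctrl mice, 1 value lay apart from the other 3 by more than Dixon's 95% critical value in 10 of 42 named genes and shares examined. Many of these genes were named for a small p or a large fold change, to which 1 high Ctrl value can contribute. They also share the same libraries, so the 10 cannot be set against a chance rate. The Ctrl 1 mouse was high for Myh11 (78076 normalized counts), Cnn1 (36843), Ccn3 (88739), Susd5 (11793.5), Htr1b (597) and Slc6a4 (324). The Ctrl 2 mouse was high for Slc22a3 (248), the Ctrl 3 mouse for Vwf (17958) and the Ctrl 4 mouse for Scgb3a2 (1288) and Lifr (5357). The Ctrl 1 library also had the largest share of smooth muscle and pericyte marker counts of the 6 mice, 1.03%.

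In 12 of 140 named genes the LY mice lay on one side of all Ctrl mice and the AngII+LY mice on the opposite side of all AngII mice. Over all 19145 genes tested this held for 201. Most named genes had been named because their LY and Ctrl mice were separated, so that part of the pattern was set by the choice of genes. The edgeR test of the difference passed for 0 of them (adjusted p of 0.295 to 0.303). The difference of the 2 effects, with AngII minus without, was -2.70 on the log2 scale for Slc18a2, -2.44 for Il33, -1.59 for Col4a3, -1.02 for Gnaq, -0.98 for Emcn and -0.77 for Lrp6, which were higher with LY272015 alone and lower when it was added to AngII. It was 1.84 for Jag2, 1.31 for Hspb1, 1.03 for Col4a1, 1.02 for Rplp2 and 1.01 for Fabp4, which had the reverse order. For Foxa2 the fitted difference was -15.74, which is no bound because the Ctrl and AngII+LY mice were at 0, and Foxa2 had 30.7 and 19.2 normalized counts in LY and 12.4, 9.54, 99.7 and 13.2 in AngII mice.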

How the results depend on the processing

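The count of 0 called genes held in every edgeR setting run, in limma voom and whichever of the 6 mice was left out, and only DESeq2 called genes (20 with all groups and 50 with the LY and Ctrl mice alone). Genes at an unadjusted p under 0.05 (266, with 120 higher and 146 lower) numbered 427 with DESeq2 (280 lower), 920 with limma voom and sample quality weights (577 higher, 343 lower), 633 with no filter on low counts (375 and 258), 160 at a mean count of at least 100 (68 lower), 668 from LY and Ctrl mice only in edgeR (363 and 305), 485 with legacy=FALSE in glmQLFit (265 and 220) and 987 with DESeq2 on LY and Ctrl mice only (420 and 567). The last and the legacy=FALSE setting, like a fit without the smallest library and the counts of separated genes per list under other scalings, were chosen after seeing the data. The planned legacy=TRUE is the default of this edgeR version and gave the same 266. Leaving out 1 mouse gave 113 to 383 such genes, 45 to 218 higher and 68 to 219 lower, with the lowest counts without the LY 1 mouse. Separated genes numbered 1480 to 3267 higher and 1699 to 3858 lower without 1 mouse, as fewer mice overlap less by construction, and 702 were higher at a mean count of at least 100. Genes at 0 in LY mice numbered 107 to 327 and genes at 0 in Ctrl mice 70 to 419 without 1 mouse, and 10 and 14 when at least 10 counts were asked for. For the interaction, DESeq2 called 210 genes, and the unadjusted count of 2545 was 1290 to 2927 without 1 mouse. The share of genes with the same sign with and without AngII (39.8%) was 44.2% with a GC correction and 35.2 to 47.0% without 1 mouse, and among the genes at an unadjusted p under 0.05 (32%) it was 19.1 to 47.3%. The mitochondrial difference of 3.62 points was 3.05 to 4.27 without 1 mouse and 3.34 of protein-coding counts.

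Replicate numbers are shared by the groups, but no label ties mice of the same number, so the numbers were taken as names only. The deviations of same-numbered LY and Ctrl mice had a Pearson r of -0.0617 and -0.0951. With 2 LY mice the deviations from their mean mirror each other, so these values cannot show whether same-numbered mice shared a batch. A fit with the replicate number as a block called 0 genes and left 387 (208 higher) below an unadjusted p of 0.05. Under that block Htr2b was at -0.25, Slc29a4 at -0.22 and Srebf1 at -0.0028 on the log2 scale, against the sign reported, and the block changed no other direction of a named gene. Without 1 mouse the log2 fold change ranged from -2.29 to 2.01 for Htr2b, -3.34 to 0.99 for Slc29a4, -7.77 to 0.57 for Tph1, -5.68 to 0.62 for Htr7, -0.58 to 0.094 for Htr2a and -0.11 to 0.93 for Ddc. All but 12 of the values of named genes under these alternatives kept their direction. The cause of these moves was not tested. With 2 LY mice, a gene under 100 normalized counts had a median 95% half-width of 3.03 on the log2 scale, so its difference could not be resolved at this depth and number.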
